A study of Homo sapiens with 6 samples.

Results

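The genes described here are unnamed spliced genes of intermediate span: rows of a table of human genes whose name column only repeats the Ensembl identifier, whose exonic length is shorter than the distance from start to end, and whose span is 10000 to 100000 bases. The rule left out a block of rows on the short arm of chromosome 21 and took 10091 of the table's 35036 rows. No measured value entered it. Their median span was 25454 bases and their median exonic length 1254 bases.

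RNA came from U-2OS cells, an osteosarcoma-derived human line grown in McCoy's medium. The samples were 6 libraries, of which 3 carried the genotype label SiCtrl and 3 the label SiSFPQ, names that read as a control and an SFPQ-directed small interfering RNA. All 6, controls included, carried the treatment label actinomycin D, an agent that binds DNA and stops RNA polymerases, and neither its dose nor its duration was given in the sources used here. The labels name no separate cultures, so p-values rest on the spread between these libraries, which may be technical. Loss of the targeted transcript could not be looked at, because SFPQ was not analysed here. None of the 23 cell type markers looked for was among the table's rows, so the line was not checked against its markers either.

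Long non-coding RNA genes without a symbol are mostly products of large-scale annotation. Many are spliced and polyadenylated like messenger RNAs. Common forms are antisense transcripts across a coding gene, transcripts that leave a coding gene's promoter in the opposite direction, transcribed pseudogenes (copies of a gene that no longer encode its protein), and transcripts far from any coding gene. SFPQ, a nuclear protein that binds RNA and DNA, is a core component of paraspeckles and acts in transcription, splicing and the retention of RNAs in the nucleus.

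Sequences are shown first for 2 features that recur below. The first is the likeness of transcribed pseudogenes to their parent genes. HERC2, a very large ubiquitin ligase gene, has copies on chromosomes 15 and 16 that lie within members. The stretch below is 75 bases of HERC2 coding sequence (GRCh38, chr15:28270741-28270815, minus strand, within 1 exon), followed by the same stretch of 3 of its pseudogenes, all from GENCODE release 29 transcripts. Capitals mark bases that differ from HERC2.

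HERC2: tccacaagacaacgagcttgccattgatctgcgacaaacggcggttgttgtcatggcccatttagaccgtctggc

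HERC2P2: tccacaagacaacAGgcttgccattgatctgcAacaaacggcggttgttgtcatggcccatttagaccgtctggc

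HERC2P4: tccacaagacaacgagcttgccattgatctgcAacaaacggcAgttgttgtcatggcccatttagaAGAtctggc

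HERC2P5: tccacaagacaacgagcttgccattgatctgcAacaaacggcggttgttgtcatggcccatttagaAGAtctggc

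These copies differed from HERC2 at 3, 5 and 4 of the 75 bases. Over the longest alignment, HERC2P2 was 97.2% identical to the HERC2 transcript across 4453 bases, HERC2P5 94.4% and HERC2P4 92.3%. SMG1, the kinase that phosphorylates UPF1 in nonsense-mediated decay, has copies on chromosome 16 that are as close. Its stretch (chr16:18896882-18896956, minus strand) is shown because members over HERC2 and SMG1 copies differed in direction below. Capitals again mark differences from the parent.

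SMG1: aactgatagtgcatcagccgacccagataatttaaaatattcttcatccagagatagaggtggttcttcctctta

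SMG1P1: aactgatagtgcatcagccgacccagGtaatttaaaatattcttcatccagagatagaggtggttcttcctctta

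SMG1P2: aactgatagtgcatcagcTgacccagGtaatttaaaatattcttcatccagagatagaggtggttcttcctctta

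SMG1P3: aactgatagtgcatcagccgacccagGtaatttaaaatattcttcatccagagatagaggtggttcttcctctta

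The SMG1 copies differed from the parent at 1, 2 and 1 bases of this stretch, and SMG1P1 was 97.6% identical to it over 4233 bases. How reads that match several copies were assigned was not given in the sources used here. A value of such a member may therefore hold reads of other copies or of the parent, and their part in the results was not tested.

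The second feature is a start shared with a coding gene. The 3 promoters below are those of coding genes that a member without coding overlap leaves in the opposite direction (RefSeq, GRCh38.p14, 250 bases before to 50 after the coding gene's start, in the coding gene's orientation). Capitals mark each GC box, searched as GGGCGG or its complement CCGCCC. The 3 were chosen among members called higher below, and only where the member's listed start lies inside the window. Neither that position nor their direction is therefore a finding.

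ZNF195 promoter (chr11:3379097-3379396, minus strand), facing ENSG00000290960: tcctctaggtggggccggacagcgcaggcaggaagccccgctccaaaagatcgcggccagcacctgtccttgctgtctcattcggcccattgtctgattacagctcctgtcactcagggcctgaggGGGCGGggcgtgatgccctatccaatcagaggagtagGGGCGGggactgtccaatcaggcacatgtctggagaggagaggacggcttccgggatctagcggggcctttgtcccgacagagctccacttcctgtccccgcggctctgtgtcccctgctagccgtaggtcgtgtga

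SEPTIN11 promoter (chr4:76949502-76949801, plus strand), facing ENSG00000289586: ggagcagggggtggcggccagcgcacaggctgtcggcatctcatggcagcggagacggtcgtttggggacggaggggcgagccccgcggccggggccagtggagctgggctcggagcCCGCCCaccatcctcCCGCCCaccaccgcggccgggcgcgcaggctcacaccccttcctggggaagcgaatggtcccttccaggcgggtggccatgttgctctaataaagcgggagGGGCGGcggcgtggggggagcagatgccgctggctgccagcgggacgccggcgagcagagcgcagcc

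SLK promoter (chr10:103966890-103967189, plus strand), facing ENSG00000289745: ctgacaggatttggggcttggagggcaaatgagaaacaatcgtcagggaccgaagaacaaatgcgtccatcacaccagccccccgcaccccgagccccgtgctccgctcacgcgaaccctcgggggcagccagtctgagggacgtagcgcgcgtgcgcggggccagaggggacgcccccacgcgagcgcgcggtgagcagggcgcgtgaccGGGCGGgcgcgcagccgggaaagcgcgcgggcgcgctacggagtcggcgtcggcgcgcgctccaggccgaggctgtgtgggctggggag

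These windows held 17, 31 and 42 CG dinucleotides and 2, 3 and 1 GC boxes. The member starts at base 108 of the ZNF195 window, base 70 of the SEPTIN11 window and base 154 of the SLK window.

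The authors' table held read counts per gene, 1298658 to 1599566 in total per library. These totals cover the table's rows only, so they are not the libraries' sequencing depth. Levels are given as CPM, the counts scaled to a common library total with TMM factors. Of the 10091 members, 4386 had no count in any library, 4174 had counts but too few to test, and 1531 passed the filter on low counts. The tested members held 97.87% of the members' counts, with a median of 239 counts over the 6 libraries.

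Overlapping genes need a caution. A pair of members that overlap on opposite strands of chromosome 17, ENSG00000291063 and ENSG00000290858, held 4486 and 4484, 5236 and 5236, and 3906 and 3903 counts in the 3 SiCtrl libraries. In the SiSFPQ libraries they held 4679 and 4679, 5675 and 5672, and 5406 and 5405. The kit was a stranded one, but whether the counting used strand was not given in the sources used here. Where exons of a member and of a gene across it overlap, their reads therefore cannot be told apart from these counts. In bulk RNA, less RNA per cell and fewer cells with a transcript cannot be told apart either.

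Members as a whole took a slightly smaller part of the table in SiSFPQ. They held 22.1%, 22.3% and 22.3% of the counts in the SiCtrl libraries and 21.4%, 21.5% and 21.5% in the SiSFPQ libraries. The groups did not overlap, and the difference of means was -0.777 percentage points (two-sided exact permutation p = 0.1, the smallest that 3 against 3 allows). Most of it came from 1 gene. Without ENSG00000303314, which lies across the pyruvate kinase gene PKM, the difference was -0.261 points, and among members without coding overlap, whose share was 4.87% ± 0.0089 in the control libraries and 4.68% ± 0.017 in the SiSFPQ libraries (SD, n = 3), it was -0.189 points.

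Of the 1531 tested members, 325 were higher and 374 lower in SiSFPQ (edgeR quasi-likelihood test, Benjamini-Hochberg adjusted p under 0.05 over all 6325 genes tested). Over all tested genes the test called 48.4%, of which 24.5% of genes were higher and 24.0% lower. Members were thus called higher in 21.2% and lower in 24.4% of cases, close to that background. Their median log2 fold change was -0.03, against 0.01 over all genes. Of the called members, 93 rose and 73 fell by a log2 fold change of at least 1. Over all 6325 genes tested, 434 rose and 340 fell by as much. The 2 groups' libraries did not overlap for 795 members, beside 54.0% of all genes tested. With plain library totals in place of TMM factors the split was 378 higher and 328 lower, so which direction had more calls rests on the scaling.

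**Figure D1:**
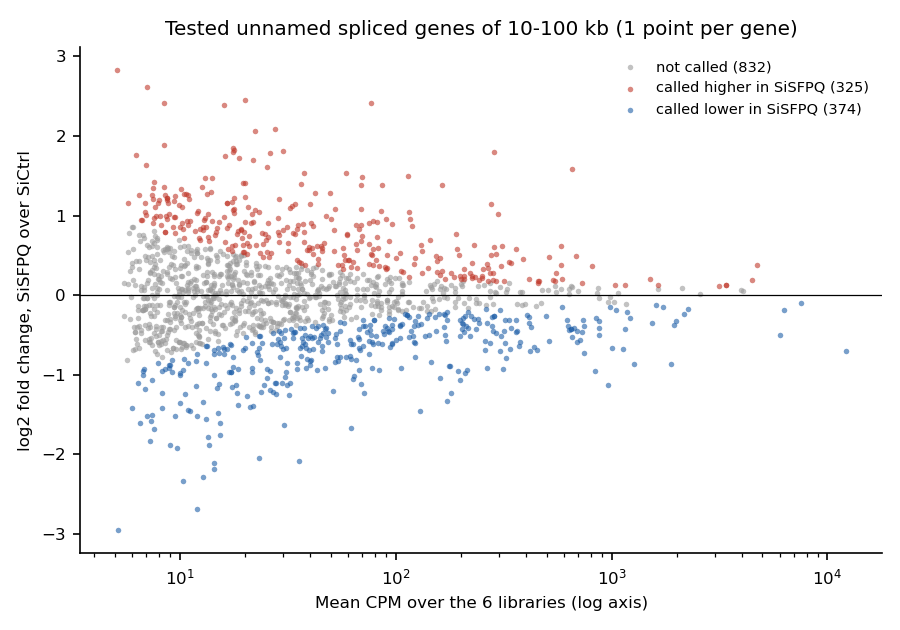
Log2 fold change (SiSFPQ over SiCtrl, vertical axis) against mean CPM over the 6 libraries (horizontal log axis) for the 1531 tested members, 1 point each. Red points (325) were called higher, blue points (374) lower and grey points (832) were not called. The large fold changes lie at low levels, and among the most abundant members blue points outnumber red ones.

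Abundant and rare members were split differently, a contrast that was not tested. Among the 326 members with a mean of 100 CPM or more, 88 were higher and 140 lower, against 452 higher and 537 lower of 1388 genes of the whole table at that level. Among the 264 members under 10 CPM, 43 were higher and 27 lower. Over all genes at this low level, 190 of 1082 were higher and 135 lower. Under plain library totals the split of the abundant members was 109 higher and 122 lower.

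Span showed a small gradient in the members' medians. For members of 10 to 20 kb the median was 0.03, with 133 higher and 132 lower of 555. Those of 20 to 50 kb had a median of -0.04 (128 higher and 145 lower of 630). Those of 50 to 100 kb had -0.09, with 64 higher and 97 lower of 346. Outside the members, unnamed spliced genes over 100 kb had a median of -0.18 (46 higher and 105 lower of 301) and those under 10 kb a median of 0.00 (402 higher and 375 lower of 1687). Named spliced genes of the same 10 to 100 kb span had a median of 0.08, with 311 higher and 232 lower of 1023. These differences between groups of genes were not tested.

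The listed spans, read as GRCh38 coordinates, were set against GENCODE 29 to see what lies there. By span, introns included, 783 of the tested members crossed an exon of a coding gene on the opposite strand and 198 crossed one on the same strand. Another 25 lay over coding introns alone and 525 overlapped no coding gene on either strand. A crossed exon may therefore lie in a member's intron. Of the 587 tested members of all classes in GENCODE 29, 240 had own exons free of coding exons. Members whose span crossed a coding exon on the opposite strand were higher in 148 cases and lower in 183. Their median log2 fold change was -0.02 (18.9% higher and 23.4% lower). Those on the same strand were higher in 54 (27.3%) and lower in 46 (23.2%), with a median of 0.05. Members over introns alone were higher in 8 and lower in 5 of 25. Of the 525 clear of coding genes, 115 were higher (21.9%) and 140 lower (26.7%). All of these shares are to be read against 24.5% higher and 24.0% lower over all genes tested. The median of the 525 was -0.09, and it was -0.05 without SiCtrl replicate 1. Under plain library totals 128 were higher and 125 lower, with a median of -0.02.

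The 525 members clear of coding genes fell into a pair of groups with different medians. Those whose span held a pseudogene on the same strand were higher in 45 and lower in 93 of 258 cases, with a median of -0.23. The remaining 267 were higher in 70 and lower in 47, with a median of 0.08. The majority directions of both groups were the same under RLE, upper-quartile and plain scaling and without each library in turn. The other genes of the table divided in the same way, with 73 higher and 130 lower of 382 over a pseudogene (median -0.12) and 298 higher and 217 lower of 986 without one (median 0.12), so other genes showed the same pattern. These contrasts were not tested.

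**Figure D2:**
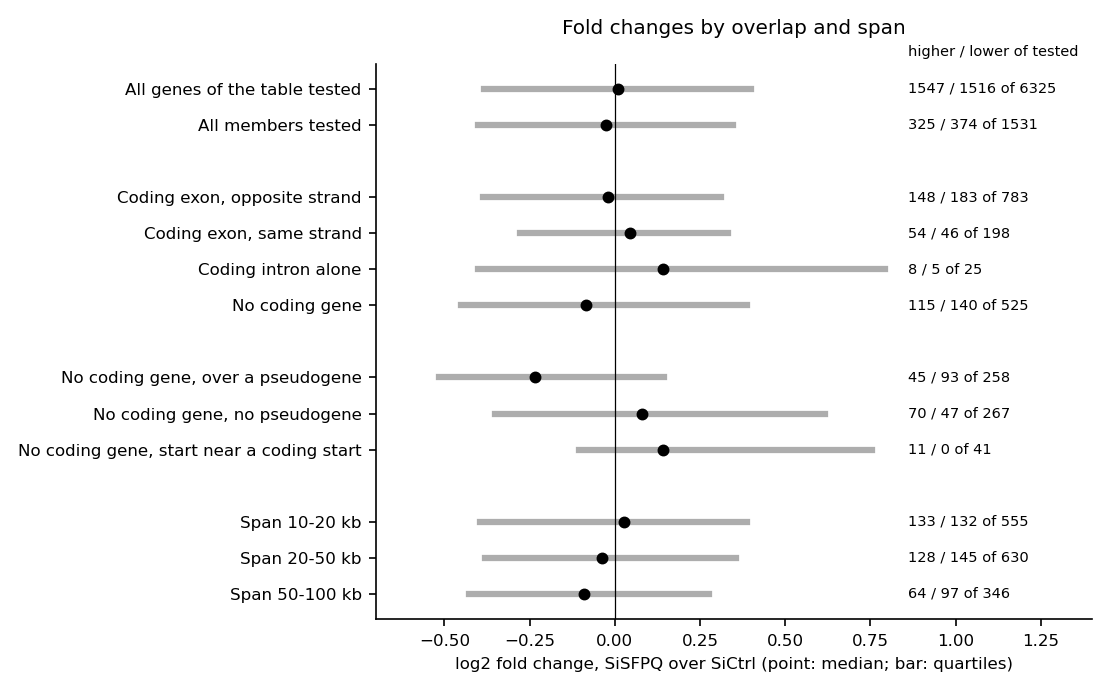
Median (black point) and quartiles (grey bar) of the log2 fold change, SiSFPQ over SiCtrl, for all tested genes of the table and for tested members by overlap with coding genes, pseudogenes and coding starts, and by span. Numbers at the right give genes called higher, called lower and tested. Members over pseudogenes and clear of coding genes have a median of -0.23 and those with a start near a coding start on the opposite strand a median of 0.14.

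The members named for the largest rises and falls were chosen among called members of at least 5 CPM whose groups do not overlap, so the separation of their libraries is part of the choice and is no finding. Where the lower group held only a few CPM, a rise passed the filter on low counts through SiSFPQ and a fall through SiCtrl. This holds for such members further below as well. Of those that overlap no coding gene, ENSG00000286765 (chr18:8971624-8998235, plus strand) was among the 5 largest rises, and its nearest coding gene, NDUFV2, lies 104395 bases away. It had 2.14, 3.397 and 2.24 CPM in SiCtrl and 13.7, 11.2 and 18.1 CPM in SiSFPQ (log2 fold change 2.42, SE 0.40, adjusted p = 1e-08). No library of either group stood far from its replicates. ENSG00000286765 passed the filter on low counts through the SiSFPQ libraries, as did ENSG00000297188 below.

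ENSG00000300161 (chr5:175270324-175287686, minus strand) had 4.28, 2.72 and 8.23 CPM in SiCtrl and 33.6, 23.7 and 23.3 CPM in SiSFPQ. In SiCtrl 1 library lay above the other 2 (log2 fold change 2.39, SE 0.30). ENSG00000276972 (chr12:115302846-115354797, minus strand), in a region 599075 bases from the Mediator gene MED13L, had 6.42, 8.15 and 11.2 CPM in SiCtrl and 37.4, 39.2 and 31.03 CPM in SiSFPQ. Its SiSFPQ values were closely grouped and its log2 fold change was 2.06 (SE 0.25). ENSG00000297188 (chr9:40665735-40746609, minus strand) had 3.57, 4.08 and 2.99 CPM in SiCtrl and 12.98, 11.2 and 16.2 CPM in SiSFPQ (log2 fold change 1.89, SE 0.38).

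Another of the 5, ENSG00000310113 (chrX:47496932-47513294, minus strand), spans NUS1P1, a pseudogene of NUS1, which encodes a subunit of the enzyme that makes dolichol. It had 11.4, 10.2 and 9.73 CPM in SiCtrl and 45.8, 54.8 and 33.6 CPM in SiSFPQ, and the SiCtrl libraries were close together (log2 fold change 2.09, SE 0.22, adjusted p = 1.2e-19). A second member over a NUS1 copy, ENSG00000262198 over NUS1P2 on chromosome 13 (named after its values were seen), held 8, 3 and 7 counts in SiCtrl and 10, 14 and 19 in SiSFPQ. It was called higher as well, at a log2 fold change of 1.16 (SE 0.39, adjusted p = 0.0081). With so few SiCtrl counts it passed the filter on low counts through the SiSFPQ libraries, so its call adds no separate support.

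The 5 largest falls among members clear of coding genes lay in 4 cases over a pseudogene on the same strand. ENSG00000294922 (chr4:49502990-49540804, minus strand), over ANKRD20A17P, had 22.1, 16.99 and 23.2 CPM in SiCtrl and 3.82, 0.623 and 5.17 CPM in SiSFPQ. The SiSFPQ libraries were all low but unequal, with 1 library holding a single count (log2 fold change -2.69, SE 0.35). ENSG00000290660 (chr13:23908013-23954192, minus strand), over ANKRD20A19P, had 19.98, 25.1 and 25.4 CPM in SiCtrl and 5.35, 7.47 and 3.23 CPM in SiSFPQ (-2.11, SE 0.30).

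ENSG00000290409 (chr20:26103281-26135785, minus strand) spans NCOR1P1, a copy of the nuclear receptor corepressor gene NCOR1. It had 47.1, 27.9 and 37.4 CPM in SiCtrl and 8.400, 9.34 and 9.05 CPM in SiSFPQ, so SiCtrl libraries differed among themselves while SiSFPQ libraries were alike (log2 fold change -2.05, SE 0.24). ENSG00000290970 (chr9:66047084-66062353, minus strand) has no pseudogene on its strand and had 15.7, 19.7 and 27.7 CPM in SiCtrl and 3.05, 8.097 and 6.46 CPM in SiSFPQ (-1.78, SE 0.30). ENSG00000290620 (chr13:18965270-19009436, minus strand), over a copy of the histone demethylase gene PHF2, was the most abundant of the 5 at 104, 82.9 and 97.3 CPM in SiCtrl and 32.1, 25.5 and 31.7 CPM in SiSFPQ. Each group was alike within itself (log2 fold change -1.67, SE 0.14, adjusted p = 2.9e-30).

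**Figure D3:**
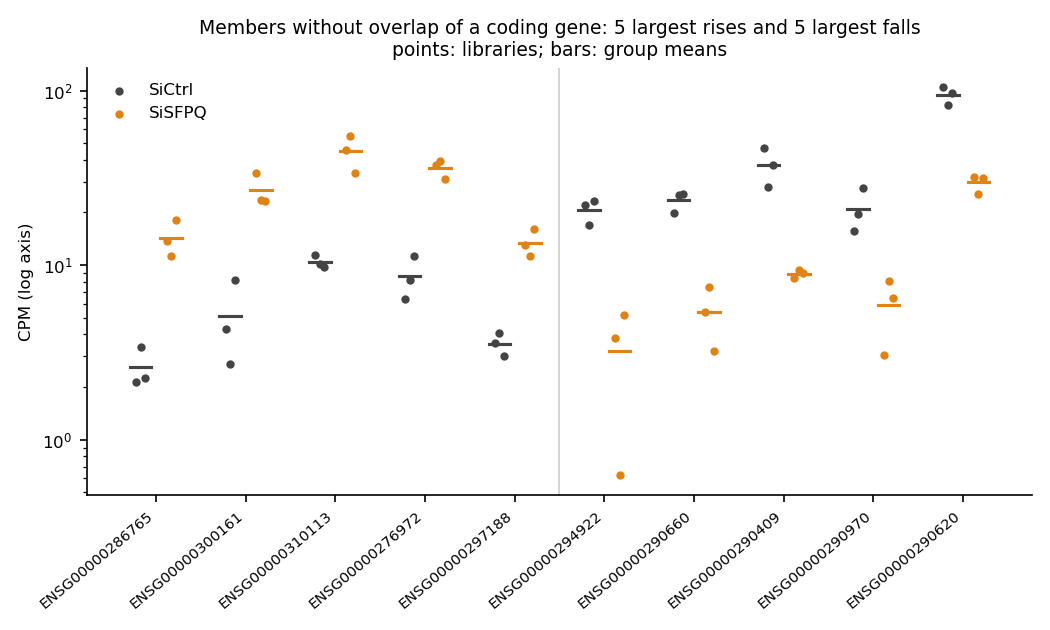
CPM per library (log axis) of the 10 members without coding overlap that rose most (left of the line) and fell most (right). Points are the 3 SiCtrl (dark) and 3 SiSFPQ (orange) libraries and bars are group means. The 2 groups are apart in all 10 because the members were chosen so, and 1 SiSFPQ point of ENSG00000294922 lies far below the other 2.

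Pseudogenes were then grouped by parent gene, keeping the 22 families with at least 3 tested members. The grouping was made after values were seen, so family counts are descriptions, and some members also cross a coding gene. The 10 families described and drawn were picked with their values known, and they leave out 12 others. Among those 12, calls went both ways over copies of GTF2I (2 higher and 2 lower of 6), HNRNPA1 and RPL23A (1 and 1 of 4 each), and GOLGA2 and AGGF1 (1 and 1 of 3 each). HMGB3 copies had 2 higher of 3, CSPG4 copies 1 higher of 5 and RPL13A copies 1 higher of 3. TPTE2, UBE2Q2 and ULK4 copies had 1 lower each, and SUMO2 copies had no call in edgeR. Family counts, here and below, are to be read against 24.5% higher and 24.0% lower over all genes tested. Among members over a pseudogene and clear of coding genes, 17.4% were higher and 36.0% lower. In edgeR every tested member over ANKRD20A, NF1, SNX18 and NCOR1 copies was lower (4 of 4, 5 of 5, 3 of 3 and 3 of 3). Their median log2 fold changes were -1.86, -0.93, -1.14 and -0.51. DESeq2 called 3, 4, 2 and 3 of them lower. Members over HERC2 copies were lower in 6 of 9 cases, over FAR2 copies in 4 of 5 and over BMS1 copies in 5 of 8. The members of these 3 families that were not called also had negative values, except that 1 BMS1 value was positive under plain library totals and without SiSFPQ replicate 2 or 3.

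The 5 members over NF1 copies lie on chromosomes 2, 15, 18 and 22. NF1 encodes neurofibromin, which switches RAS off. Together they had 714, 698 and 675 CPM in the SiCtrl libraries and 369.6, 385 and 354 CPM in the SiSFPQ libraries, with no overlap. The most abundant, ENSG00000230471 (chr22:15557577-15625205, minus strand) over NF1P6, had 278, 259 and 267 CPM in SiCtrl and 118, 136 and 129 CPM in SiSFPQ (log2 fold change -1.06, SE 0.08, adjusted p = 1.2e-34). The least abundant, ENSG00000304185 over NF1P5, had 10.7, 8.83 and 7.48 CPM in SiCtrl and 5.35, 5.61 and 3.23 CPM in SiSFPQ. Its call was lost in 5 of the 6 fits that left out a library (adjusted p up to 0.17) and in DESeq2 (0.28). The call was also lost with no filter (0.11) and under plain library totals (0.052). A filter of 1 CPM in 3 libraries, looser than the main one, lost it too (0.056).

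HERC2 copies gave 9 tested members on chromosomes 15 and 16, with summed levels of 1571, 1485 and 1576 CPM in SiCtrl and 957, 999.7 and 996 CPM in SiSFPQ. All 3 SiSFPQ sums lay below all SiCtrl sums. The most abundant was ENSG00000291003 (chr15:22494864-22590745, plus strand), over HERC2P2, with 1258, 1167 and 1280.1 CPM in SiCtrl and 752, 800.4 and 788 CPM in SiSFPQ (log2 fold change -0.66, SE 0.05, adjusted p = 2e-35). ENSG00000291275 over HERC2P5 had 51.4, 43.5 and 56.1 CPM in SiCtrl and 24.4, 27.4 and 27.8 CPM in SiSFPQ (log2 fold change -0.91, SE 0.17). ENSG00000290845 over HERC2P4 had 91.3, 109 and 86.04 CPM in SiCtrl and 64.1, 68.5 and 68.5 CPM in SiSFPQ (-0.51, SE 0.12), and both kept their SiSFPQ values under the lowest SiCtrl value. The fall of ENSG00000290986, over HERC2P8 (-0.63, SE 0.19), was not called without SiSFPQ replicate 2 (adjusted p = 0.079) or in DESeq2 (0.11). DESeq2 called 3 of the 9 lower.

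FAR2, a fatty acyl-CoA reductase, has copies on chromosome 2 that held 5 tested members. ENSG00000286058 (chr2:129990302-130054112, minus strand), over FAR2P1, was the third most abundant member without coding overlap, at 2448, 2393 and 2442 CPM in SiCtrl and 1257, 1389 and 1344 CPM in SiSFPQ. The 2 groups were each tight and far apart (log2 fold change -0.87, SE 0.05, adjusted p = 1.1e-72). Per kilobase of exonic length its levels were 198 and 109 CPM in SiCtrl and SiSFPQ, against 76.1 and 48.1 CPM for ENSG00000291003 over HERC2P2. ENSG00000290654, over FAR2P4 in an intron of PLEKHB2, had 627, 596 and 622 CPM in SiCtrl and 451, 412 and 380.1 CPM in SiSFPQ (-0.57, SE 0.06). Little of these transcripts matched the FAR2 transcript: 173 of 3793 bases of FAR2P1 aligned to it, and 0 of 2210 bases of FAR2P4. The longest FAR2 alignment, 587 bases, was that of FAR2P3, against 4453 bases for HERC2P2 and HERC2.

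ANKRD20A copies, of an ankyrin repeat family clustered beside centromeres, were the family with the lowest median. Their 4 members summed to 82.1, 89.01 and 90.5 CPM in SiCtrl and 31.3, 26.2 and 30.4 CPM in SiSFPQ. Beside the 2 described above, ENSG00000290581 over ANKRD20A11P had 8.56, 8.83 and 11.97 CPM in SiCtrl and 5.35, 1.87 and 2.59 CPM in SiSFPQ and ENSG00000295710 over ANKRD20A9P had 31.4, 38.05 and 29.9 CPM in SiCtrl and 16.8, 16.2 and 19.4 CPM in SiSFPQ, both without overlap of the groups. DESeq2 did not call ENSG00000290581 (adjusted p = 0.055).

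SNX18 encodes a sorting nexin of endosomes, and 3 members lay over its copies. ENSG00000289725 had 16.4, 19.7 and 30.7 CPM in SiCtrl and 8.400, 9.34 and 5.82 CPM in SiSFPQ, a fall of every SiSFPQ library below every SiCtrl library (-1.48, SE 0.28). ENSG00000294903 crosses ENSG00000294922 on the other strand. It had 12.8, 16.99 and 19.5 CPM in SiCtrl and 7.64, 3.74 and 10.99 CPM in SiSFPQ (-1.14, SE 0.30), so the pair did not share their counts library by library, although their totals over 6 libraries agreed within 1%. DESeq2 did not call ENSG00000294903 (adjusted p = 0.069).

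BMS1, a GTPase of small ribosomal subunit assembly, has copies on chromosomes 10, 14, 16 and 22. ENSG00000283913 over BMS1P21 had 39.96, 35.3 and 33.7 CPM in SiCtrl and 14.5, 16.2 and 16.8 CPM in SiSFPQ (-1.19, SE 0.21), and ENSG00000290453 over BMS1P2 had 84.9, 82.9 and 80.8 CPM in SiCtrl and 60.3, 50.5 and 47.2 CPM in SiSFPQ (-0.66, SE 0.13). The fall of ENSG00000291205, over BMS1P17, was small (-0.15, SE 0.06). It was not called without SiCtrl replicate 1, SiCtrl replicate 3, SiSFPQ replicate 1 or SiSFPQ replicate 2 (adjusted p up to 0.11), in DESeq2 (0.12) or with no filter (0.067). Under plain library totals it was -0.08 (0.24).

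Calls over SMG1 copies went the other way, though the difference between families was not tested. Of 6, 3 were higher and 0 lower (edgeR; also 0 lower by DESeq2 and at an unadjusted p under 0.05). The members over SMG1P1 and SMG1P3 also cross coding exons on their own strand, of NPIPB5 and NPIPB3 among others. The summed level of the 6 was 1085, 1089.8 and 1156 CPM in SiCtrl and 1404, 1378 and 1354 CPM in SiSFPQ, without overlap. ENSG00000279583 (chr16:29543201-29613723, minus strand), over SMG1P2, had 245, 238 and 248 CPM in SiCtrl and 381, 376 and 368 CPM in SiSFPQ (log2 fold change 0.62, SE 0.07, adjusted p = 2.3e-17). ENSG00000291060, over SMG1P1, had 241, 224 and 247 CPM in SiCtrl and 286, 321 and 289 CPM in SiSFPQ (0.34, SE 0.07), and the SiSFPQ values again lay wholly above. The rise of ENSG00000291073 over SMG1P3 (0.19, SE 0.06) did not pass when SiCtrl replicate 1 was left out (adjusted p = 0.084).

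Members over ENPP7 and PMS2 copies had positive values throughout. ENPP7 encodes an intestinal sphingomyelinase, and 2 of 3 members over its copies were higher. ENSG00000287972 (chr4:9000668-9092530, plus strand) had 27.1, 17.7 and 22.4 CPM in SiCtrl and 38.9, 39.9 and 42.7 CPM in SiSFPQ, with no overlap (0.86, SE 0.19). ENSG00000305487 had 6.42, 7.47 and 5.24 CPM in SiCtrl and 9.16, 9.97 and 18.7 CPM in SiSFPQ, where 1 SiSFPQ library stood above the rest, and its call was lost without SiSFPQ replicate 3 (log2 fold change 0.58, adjusted p = 0.25) and in DESeq2 (0.18). PMS2 is a mismatch repair gene. Of 5 members over its copies 1 was higher, ENSG00000310537 (0.39, SE 0.16), and it was not called without SiCtrl replicate 1, SiCtrl replicate 3, SiSFPQ replicate 1 or SiSFPQ replicate 2 (adjusted p up to 0.33), in DESeq2 (0.27) or with no filter (0.097). DESeq2 and the fit with no filter thus called 0 of the 5 higher.

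**Figure D4:**
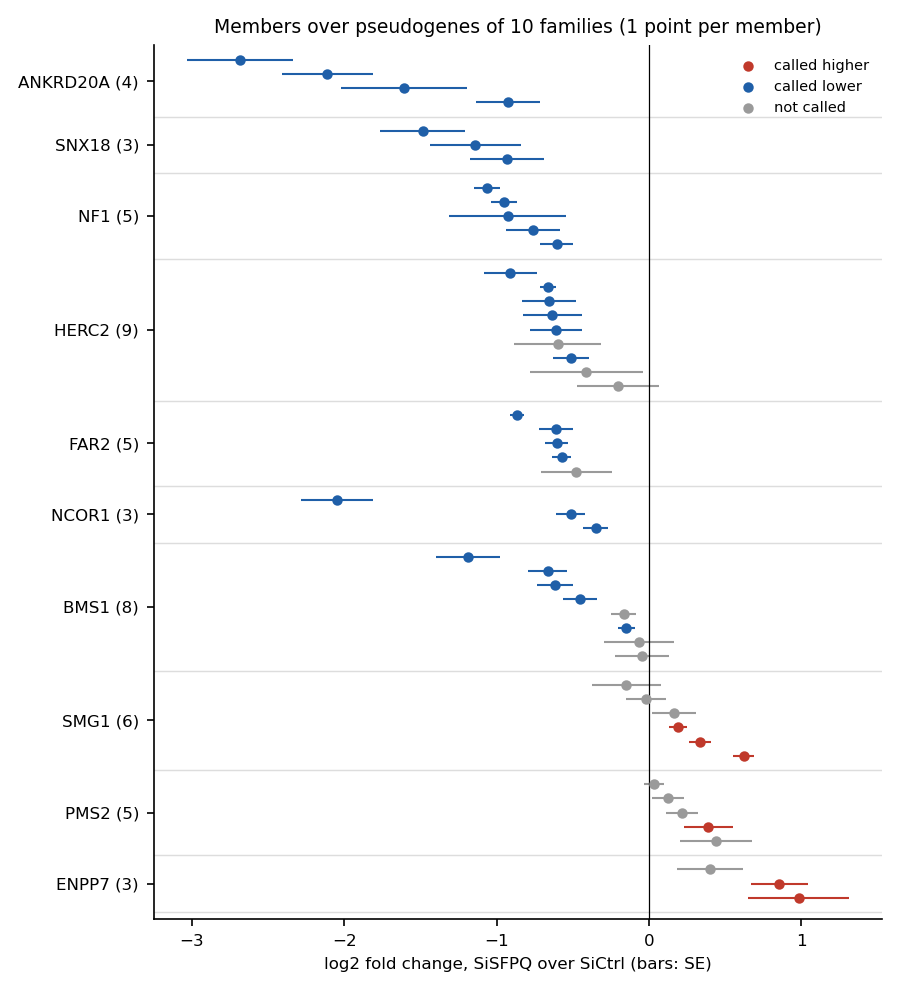
Log2 fold change (SiSFPQ over SiCtrl) of each tested member over a pseudogene of 10 of the 22 families, picked with their values known, with bars of 1 SE; the number of members is in brackets. Blue points were called lower, red points higher and grey points were not called. All points of the ANKRD20A, SNX18, NF1, HERC2, FAR2, NCOR1 and BMS1 families are below 0, and 4 of 6 SMG1 points and all PMS2 and ENPP7 points are above it.

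Starts facing a coding gene's start were looked at next, since transcripts of this kind share a promoter region with the coding gene. Among members clear of coding genes, 41 tested ones started within 1 kb of an opposite-strand coding start. Of these, 11 were higher and 0 lower (edgeR), with 30 not called and a median log2 fold change of 0.14. The share called higher, 26.8%, was close to the 24.5% of all genes, and the share called lower was 0.0% against 24.0%. The median was 0.29 without SiSFPQ replicate 2, 0.23 without SiCtrl replicate 3 and 0.22 without SiCtrl replicate 1. Leaving out any 1 SiSFPQ library gave 11 higher and 1 lower, DESeq2 called 7 higher and 0 lower, and limma-voom 12 higher and 1 lower. At an unadjusted p under 0.05, 12 were higher and 2 lower. The 484 other members clear of coding genes were higher in 104 and lower in 140 cases, with a median of -0.10. Genes of the table that are not members but have the same position were higher in 77 and lower in 26 of 195, with a median of 0.26.

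ENSG00000273329 (chr7:129591008-129611656, minus strand) starts 58 bases from NRF1, a transcription factor of respiratory genes. It had 16.4, 6.79 and 8.98 CPM in SiCtrl and 22.9, 28.7 and 20.7 CPM in SiSFPQ, with 1 SiCtrl library above the others and all SiSFPQ libraries above it (1.17, SE 0.25). ENSG00000267939 (chr19:8005761-8016025, plus strand) faces ELAVL1, which encodes the RNA stabilising protein HuR. It had 11.4, 10.9 and 8.23 CPM in SiCtrl and 22.1, 16.8 and 29.7 CPM in SiSFPQ, and the groups did not overlap (1.16, SE 0.26). ENSG00000290960 (chr11:3379289-3411808, plus strand), which leaves the ZNF195 promoter shown above, had 10.7, 7.47 and 12.7 CPM in SiCtrl and 24.4, 26.2 and 18.1 CPM in SiSFPQ (1.16, SE 0.26).

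ENSG00000289586 (chr4:76908716-76949571, minus strand), from the septin gene SEPTIN11, was the clearest of these by its test, at 44.2, 41.4 and 59.9 CPM in SiCtrl and 100.03, 94.1 and 74.3 CPM in SiSFPQ (log2 fold change 0.88, SE 0.13, adjusted p = 9.6e-11). The lowest SiSFPQ value was above the highest SiCtrl value. ENSG00000289745 (chr10:103936660-103967043, minus strand) faces SLK, a kinase of the cytoskeleton, and had 10.7, 23.1 and 9.73 CPM in SiCtrl and 25.2, 24.9 and 22.6 CPM in SiSFPQ. Here SiCtrl replicate 2 lay among the SiSFPQ values, and the call (0.71, SE 0.24) did not pass when SiCtrl replicate 1 (adjusted p = 0.089) or SiCtrl replicate 3 (0.11) was left out, nor in DESeq2 (0.17). The other rises faced ENTPD4, TRABD2A, TBC1D9, DIP2A, STARD10 and ANKRD18B, with log2 fold changes of 1.25, 1.07, 1.01, 0.84, 0.76 and 0.50. Of these, ENTPD4's partner was not called without SiSFPQ replicate 2 (adjusted p = 0.054) or in DESeq2 (0.14). TBC1D9's partner was not called without SiCtrl replicate 1, SiCtrl replicate 2 or SiSFPQ replicate 1 (up to 0.14), in DESeq2 (0.23) or with no filter (0.079).

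RefSeq promoters could be matched for 31 coding partners of the tested members clear of coding genes. A GC box (GGGCGG on either strand) was in 67.7% of them, against 45.0% of all 35116 promoters in the reference table. Of the 11 members that were higher, 7 had a partner with a matched promoter, and 85.7% of these 7 held a GC box. The median number of CG dinucleotides was 26 for the 31 partners, 33 for the 7 and 14 over all promoters. A CCAAT box (CCAAT, either strand) was in 25.8% of the 31 and 34.6% of all. The reference promoters were not matched to the partners, the partners are few, and these contrasts were not tested.

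Transcript ends bear on poly(A) selection, by which the libraries were made. Of the members, 1587 had a GENCODE 29 transcript ending within 50 bases of their listed end, and 678 of these (42.7%) held AATAAA or ATTAAA, the usual cleavage signals, in the last 50 bases. The share was 38.9% among tested members, 43.7% among the 71 called higher and 36.7% among the 90 called lower. Other genes of the table had it in 51.0% and protein-coding genes in 71.3%. A rising and a falling member with a signal show the form, with the signal in capitals and the last 60 bases printed.

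ENSG00000284719, higher (chr1:39809391-39809450, plus strand): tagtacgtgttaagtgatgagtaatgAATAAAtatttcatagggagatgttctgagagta

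ENSG00000248596, lower (chr5:176143085-176143144, minus strand): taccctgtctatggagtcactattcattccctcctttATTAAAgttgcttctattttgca

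Turning to members that cross coding genes, the most abundant ones lay over highly expressed messenger RNAs. Overlap was taken by span. Where exons overlap, the members' reads cannot be told apart from those genes' reads on these counts. ENSG00000303314 (chr15:72178353-72210040, plus strand), across PKM and GRAMD2A, had 14727, 14543 and 15799 CPM in SiCtrl and 8549, 9675 and 9496 CPM in SiSFPQ (log2 fold change -0.70, SE 0.04, adjusted p = 8.2e-68). It held more counts than any other member, and its groups were far apart. ENSG00000305635 (chr19:48949933-48965927, minus strand), across the ferritin light chain gene FTL and the apoptosis gene BAX, had 7101, 6971 and 7060.2 CPM in SiCtrl and 4788, 4991 and 5115 CPM in SiSFPQ (-0.50, SE 0.04). ENSG00000303745, across the ferritin heavy chain gene FTH1, had 6776, 6570.2 and 6729 CPM in SiCtrl and 5890.4, 5902 and 5886 CPM in SiSFPQ, a small fall with no overlap (-0.18, SE 0.04), which was -0.12 under plain library totals.

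ENSG00000257379 (chr12:53441741-53467528, plus strand), over PCBP2 and PRR13, rose from 4061, 4009 and 4181 to 5266, 5252 and 5451 CPM (0.38, SE 0.04). PCBP2 encodes a poly(C)-binding protein. ENSG00000299210, antisense to the ribosomal protein gene RPL19, had 3901, 4556 and 4109 CPM in SiCtrl and 4818, 4772 and 4795 CPM in SiSFPQ (0.19, SE 0.04). ENSG00000273149, across TPT1, had 7955, 7767 and 7716 CPM in SiCtrl and 7456, 7517 and 7017 CPM in SiSFPQ. The groups did not overlap, but the difference (-0.09, SE 0.04, adjusted p = 0.048) was not called without SiCtrl replicate 1, SiSFPQ replicate 1 or SiSFPQ replicate 3 (up to 0.30) or under plain library totals (0.60). It was also not called with the replicate block (0.059), with no filter (0.14) or with the looser filter of 1 CPM in 3 libraries (0.083).

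The chromosome 17 pair ENSG00000291063 and ENSG00000290858, whose counts nearly coincide, overlaps no coding gene and had 3201, 3558 and 2922 CPM in SiCtrl and 3573, 3535 and 3495 CPM in SiSFPQ for the former. The lowest 2 SiSFPQ libraries lay under the highest SiCtrl library, and the call (0.13, SE 0.04) did not pass when SiCtrl replicate 3 was left out (log2 fold change 0.05, adjusted p = 0.39) or in DESeq2 (adjusted p = 0.074). The 4 most abundant members that were not called were ENSG00000289393 across PAICS and SRP72 (log2 fold change 0.05, SE 0.04), ENSG00000290199 over MIF and DDT (0.07, SE 0.04), ENSG00000310385 across PABPC1 (0.02, SE 0.04) and ENSG00000306812 across NACA and PTGES3 (0.09, SE 0.05).

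The largest changes over coding genes were at lower levels. ENSG00000238171 (chr2:181076051-181105968, minus strand), across the ubiquitin-conjugating enzyme gene UBE2E3, had 2.14, 2.04 and 1.496 CPM in SiCtrl and 12.98, 10.6 and 12.9 CPM in SiSFPQ (2.62, SE 0.45). It passed the filter on low counts through the SiSFPQ libraries. ENSG00000230615 (chr1:44030414-44115913, plus strand), across the glycine transporter gene SLC6A9, had 5.71, 8.15 and 4.49 CPM in SiCtrl and 35.1, 31.8 and 35.6 CPM in SiSFPQ (2.45, SE 0.27). Its own GENCODE 29 exons cross no coding exon. ENSG00000259536 (chr15:40488039-40557954, plus strand), across CCDC32, was the most abundant of these rises, at 26.4, 25.8 and 19.5 CPM in SiCtrl and 145, 111 and 133 CPM in SiSFPQ (log2 fold change 2.42, SE 0.14, adjusted p = 5.6e-64).

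ENSG00000285906 (chr3:11193029-11225877, minus strand) lies in an intron of HRH1, the histamine H1 receptor gene, and had 5.71, 10.2 and 6.73 CPM in SiCtrl and 31.3, 31.1 and 20.7 CPM in SiSFPQ (1.85, SE 0.27). ENSG00000178107 (chr14:21103730-21116750, plus strand), which faces the zinc finger gene ZNF219 and crosses its exon, had 0.714, 0 and 2.99 CPM in SiCtrl and 9.93, 9.97 and 7.11 CPM in SiSFPQ. SiCtrl values were near or at 0, so its fold change (2.83, SE 0.54) rests on few reads. Its value was 4.37 without SiCtrl replicate 3 and 2.23 without SiCtrl replicate 2, and it passed the filter on low counts through the SiSFPQ libraries.

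The largest falls over coding genes came at similar levels. ENSG00000238258 (chr10:33197365-33213804, plus strand), across NRP1, a co-receptor for semaphorins and VEGF, had 55.7, 58.4 and 57.6 CPM in SiCtrl and 19.1, 11.8 and 10.3 CPM in SiSFPQ (log2 fold change -2.08, SE 0.20, adjusted p = 9.3e-25). ENSG00000287188 (chr4:168170097-168194861, minus strand), across the annexin gene ANXA10, had 19.3, 16.99 and 15.7 CPM in SiCtrl and 3.82, 1.87 and 4.53 CPM in SiSFPQ (-2.34, SE 0.36). ENSG00000304935 (chr5:146521900-146590348, plus strand), across PPP2R2B, a regulatory subunit of protein phosphatase 2A, had 18.6, 16.99 and 28.4 CPM in SiCtrl and 6.11, 1.87 and 5.17 CPM in SiSFPQ (-2.29, SE 0.32).

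ENSG00000260862 (chr16:82773319-82829638, plus strand) lies in an intron of CDH13, the gene of T-cadherin, and had 14.99, 13.6 and 14.2 CPM in SiCtrl and 3.82, 3.74 and 3.88 CPM in SiSFPQ. Both groups were tight (-1.88, SE 0.36). ENSG00000297294 (chrX:153631966-153644991, minus strand), across the MAP kinase phosphatase gene DUSP9, had 9.28, 10.2 and 8.23 CPM in SiCtrl and 0.764, 0.623 and 1.94 CPM in SiSFPQ (-2.95, SE 0.53). ENSG00000260618 across FAM214A had a log2 fold change of -2.19 (SE 0.30).

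Members were also grouped by the function of the coding gene they cross, with 11 lists of coding genes. Crossing is by span, so the exons of a member and of the gene it crosses need not overlap. Where they do, their reads cannot be told apart. Where 0 members of a list are given in a direction, the count at an unadjusted p under 0.05 and that by DESeq2 were also 0. The lists hold 1 to 13 tested members each, so their counts are set against 24.5% higher and 24.0% lower over all genes tested, and a count near that background is no result about a list. Of 13 tested members over stress response genes, 5 were higher (38.5%) and 3 lower (23.1%). Their median log2 fold change was 0.33, but 0.18 without SiCtrl replicate 1 and 0.19 without SiSFPQ replicate 1. ENSG00000289754 (chr16:28537040-28620133, minus strand), over the stress-induced gene NUPR1 and its neighbours SULT1A1 and SULT1A2, had 339.7, 320.01 and 322 CPM in SiCtrl and 964, 985 and 991 CPM in SiSFPQ (log2 fold change 1.58, SE 0.06, adjusted p = 4.4e-150). ENSG00000288007, over the stress transcription factor gene ATF3, had 22.8, 16.3 and 12.7 CPM in SiCtrl and 41.2, 42.98 and 36.8 CPM in SiSFPQ (1.21, SE 0.20). ENSG00000295480, across the co-chaperone gene BAG3, had 14.99, 16.99 and 13.5 CPM in SiCtrl and 27.5, 33.01 and 33.6 CPM in SiSFPQ (1.05, SE 0.22). In all 3 the SiSFPQ libraries were well above. On its own strand, ENSG00000289754 overlaps members with negative values, ENSG00000289755 (-0.45, called lower) and ENSG00000288656 (-0.18, not called).

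The other stress members that rose crossed the amino acid transporter gene SLC7A5 (ENSG00000260466, 0.57, SE 0.08) and the autophagy receptor gene SQSTM1 (ENSG00000301422, 0.40, SE 0.07). Those that fell crossed VLDLR, the chaperone gene HSP90B1 and the small heat shock gene HSPB1, with log2 fold changes of -0.63, -0.33 and -0.31. The 5 not called crossed ASNS, TXNRD1, HSPA8, EIF2AK3 and EIF2AK4. The last 2, kinase genes that start the integrated stress response, had values of -0.16 (SE 0.18) and -0.13 (SE 0.19).

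Of 8 members over RNA-binding and splicing genes, 4 were lower (against 24.0% of all genes) and 0 higher (edgeR), with a median of -0.25. ENSG00000304201, across HNRNPH1, had 17.1, 19.7 and 17.2 CPM in SiCtrl and 2.29, 8.097 and 7.76 CPM in SiSFPQ (-1.51, SE 0.31). ENSG00000268756, across HNRNPL, had 39.96, 48.9 and 43.4 CPM in SiCtrl and 16.8, 13.7 and 31.03 CPM in SiSFPQ (-1.10, SE 0.19). These hnRNP genes encode regulators of splicing. The members across TAF15 and SRSF6 fell by less (-0.56 and -0.39), and the 4 not called, over EWSR1, U2AF2, TRA2A and KHSRP, had values between -0.10 and 0.08. RLE scaling called 5 of the 8 lower.

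Glycolysis and hypoxia genes gave 5 tested members, of which 3 were lower, 0 higher (edgeR) and the median was -0.52. Besides ENSG00000303314 across PKM, ENSG00000258964 (chr14:61734138-61776260, plus strand), over the hypoxia factor gene HIF1A and SNAPC1, had 1192, 1041 and 1076 CPM in SiCtrl and 580.3, 484 and 651 CPM in SiSFPQ (log2 fold change -0.95, SE 0.05, adjusted p = 1.3e-63). ENSG00000278419, over the phosphofructokinase gene PFKP, had 119, 156 and 131 CPM in SiCtrl and 84.00, 92.2 and 106 CPM in SiSFPQ (-0.52, SE 0.10). The SiSFPQ values of both lay below the SiCtrl values. Members over HK2 and PGK1 were at -0.15 (SE 0.10) and 0.13 (SE 0.26).

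Matrix and adhesion genes gave 5 members, 3 of them lower and all with negative values. ENSG00000227279 (chr18:27921459-27963692, plus strand), across the N-cadherin gene CDH2, had 229, 209 and 251 CPM in SiCtrl and 125, 121 and 125 CPM in SiSFPQ (log2 fold change -0.89, SE 0.09, adjusted p = 6.5e-23). ENSG00000227227, across the integrin gene ITGAV, had 146, 152 and 141 CPM in SiCtrl and 102, 105 and 86.6 CPM in SiSFPQ (-0.58, SE 0.10). Both fell in every SiSFPQ library. The fall of ENSG00000304419 across COL3A1 (-0.42, SE 0.13) was not called without SiCtrl replicate 1 (log2 fold change -0.22, adjusted p = 0.22) or SiSFPQ replicate 1 (0.079), nor in DESeq2 (0.14).

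Cytoskeleton genes gave calls in both directions, 2 higher and 2 lower of 5. The median was 0.11, but 0.00 without SiSFPQ replicate 1 and 0.27 without SiSFPQ replicate 2. ENSG00000298790 (chr19:16094865-16111370, minus strand), across the tropomyosin gene TPM4, had 144, 113 and 123 CPM in SiCtrl and 458, 417 and 449.9 CPM in SiSFPQ (log2 fold change 1.80, SE 0.08, adjusted p = 2e-114). ENSG00000304541, across a second tropomyosin gene, TPM1, went the other way, with 1801, 1589.9 and 1556 CPM in SiCtrl and 876, 889 and 948 CPM in SiSFPQ (-0.87, SE 0.05). ENSG00000298338, across the actinin gene ACTN4, had 1404, 1285 and 1288 CPM in SiCtrl and 611, 594 and 613 CPM in SiSFPQ (-1.13, SE 0.05), and ENSG00000309609, across the tubulin gene TUBB2A, had 412, 427 and 444 CPM in SiCtrl and 607, 551 and 638 CPM in SiSFPQ (0.48, SE 0.06). In none of the 4 did the groups overlap.

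All 3 members over p53 and DNA damage genes were lower in edgeR, but 1 of the 3 in DESeq2, under plain library totals and with no filter. They are ENSG00000305635 across BAX and FTL, ENSG00000291078 over FANCD2 (-0.34, SE 0.14) and ENSG00000267002 over BRCA1 and NBR1 (-0.25, SE 0.10). On the opposite strand, ENSG00000291078 overlaps the member ENSG00000291224, which was called higher (0.47). The call at FANCD2 ended without SiCtrl replicate 2 (log2 fold change -0.21, adjusted p = 0.31), SiSFPQ replicate 2 (0.077) or SiSFPQ replicate 3 (0.14), and that at BRCA1 without SiCtrl replicate 1, SiCtrl replicate 2 or SiSFPQ replicate 1 (up to 0.18).

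Of 6 members over immediate early and transcription factor genes, 2 were higher (33.3%) and 0 lower (edgeR), against 1 higher in DESeq2. ENSG00000259118, across MAX, the partner of MYC, had 52.1, 52.3 and 62.8 CPM in SiCtrl and 113, 108 and 125 CPM in SiSFPQ (1.06, SE 0.12), with no overlap. ENSG00000309294, across the nuclear receptor gene NR4A2, had 7.14, 8.15 and 11.97 CPM in SiCtrl and 17.6, 14.3 and 17.5 CPM in SiSFPQ (0.85, SE 0.29), a call that depended on SiCtrl replicate 1 (adjusted p = 0.065 without it). Among 4 members over ribosome biogenesis genes, ENSG00000231970 across RRP12 rose, with 24.3, 33.97 and 28.4 CPM in SiCtrl and 71.8, 69.8 and 70.5 CPM in SiSFPQ (1.28, SE 0.15). The fall of ENSG00000230325 over HEATR1 (-0.48, SE 0.19) was not called without SiCtrl replicate 2, when it was -0.14 (adjusted p = 0.66), SiSFPQ replicate 2 (0.18) or SiSFPQ replicate 3 (0.14). Nor was it called in DESeq2 (0.34), limma-voom (0.075), with no filter (0.077) or under plain library totals (0.062).

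Growth factor genes gave 4 members, of which ENSG00000289788 across BRAF was higher (0.72, SE 0.31), a call lost in 5 of the 6 fits that left out a library (adjusted p up to 0.16), with either filter alternative and in both other tools. The others, across IGF1R, SMAD4 and AMOTL1, were not called. Chromatin genes gave 2 members, with ENSG00000258034 across MED13L lower (-0.50, SE 0.17; not called without SiCtrl replicate 1, adjusted p = 0.067, or in DESeq2, 0.16) and ENSG00000301109 across CHD4 not called (0.22, SE 0.18). The single cell cycle member tested, ENSG00000307540 across E2F2, was not called (-0.26, SE 0.36).

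**Figure D5:**
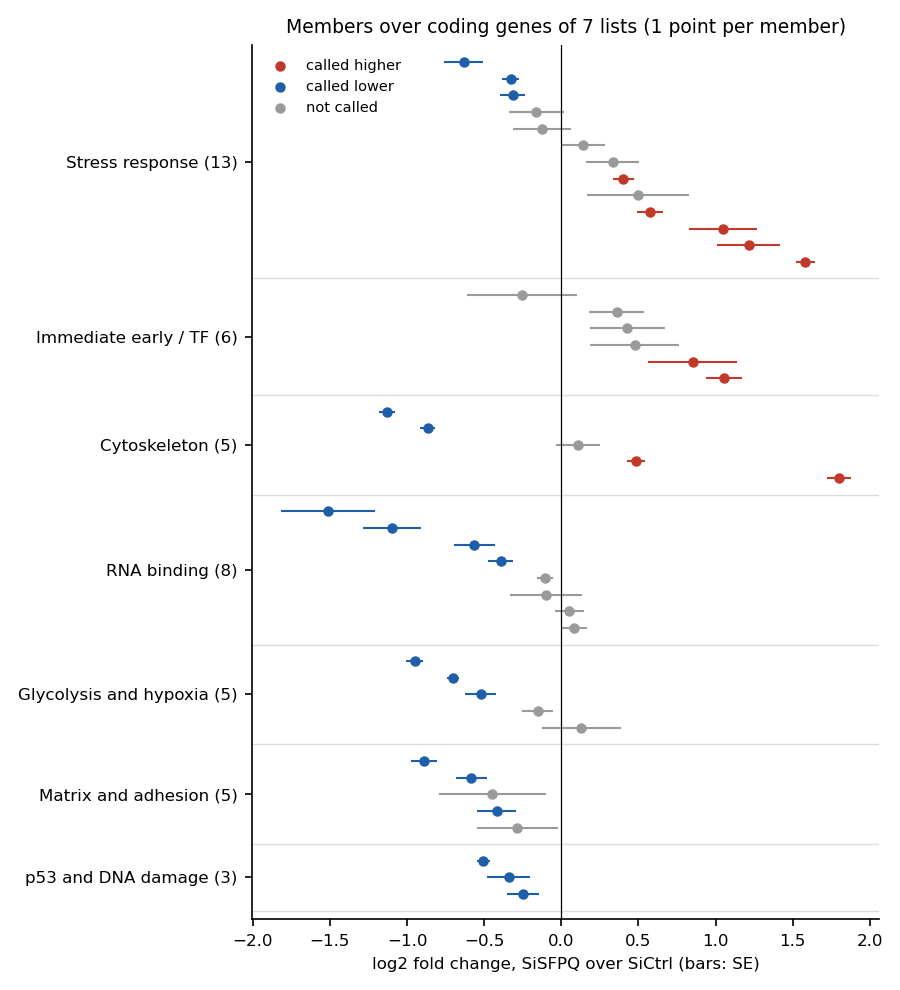
Log2 fold change (SiSFPQ over SiCtrl) of each tested member over a coding gene of 7 lists, with bars of 1 SE; the number of members is in brackets. Red points were called higher, blue points lower and grey points were not called. All 5 matrix and adhesion points and all 3 p53 points are below 0, and cytoskeleton points lie on both sides.

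Members that overlap each other were counted as well, since they may share reads. The 1531 tested members formed 1421 overlap clusters, and 207 of them shared a cluster with another tested member. Of 115 overlapping pairs, 87 were on opposite strands. Both members were called in 40 pairs, in the same direction in 34 and in opposite directions in 6. Taken singly, 48.4% of all genes tested were called, and no background for pairs was computed. Some members are in several pairs, so the pairs are not separate observations. With only the member of most counts kept per cluster, 300 were higher and 353 lower.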

How the data were processed

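The authors deposited read counts per gene, whole numbers whose totals differ between libraries, so they were read as not normalised. Per the labels' protocols, TRIzol-extracted RNA went through poly(A) selection and a stranded library kit. Not given in the sources used here are the aligner, counter, annotation and build. Of the members, 2583 were in GENCODE 29, all 2583 on the same chromosome and 2581 overlapping its position, so coordinates were read as GRCh38.

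Counts of all genes were filtered with filterByExpr, scaled with TMM and fitted with edgeR 4.0.16 (R 4.3.3) by robust quasi-likelihood, with group as the sole term; tests were two-sided with Benjamini-Hochberg adjustment over 6325 genes at 0.05. The filter used group sizes, so a member can pass through the group in which it is high. SE is the absolute log2 fold change divided by the square root of F. Tested on simulated data for this comparison (6325 genes), the fit called 91 of 100 genes given a log2 change of 1, 65 of 100 given 0.5, and 7 of 5895 given none. Changes were given only to genes with more counts, and to far fewer genes than the data's calls. These rates therefore do not cover the low members. Libraries of a group differed by more than sampling noise (chi-square per degree of freedom 1.24 to 1.40), so each was counted once. At these table totals 1 count is under 1 CPM, and rows under about 10 CPM rest on few reads.

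Overlap was taken from listed spans, at least 1 base, against GENCODE 29 coding genes and same-strand pseudogenes. Named genes were the 10 largest rises and falls among called members of at least 5 CPM with groups apart; the 5 each way without coding overlap; the 4 most abundant called each way and 4 not called; and the 2 smallest adjusted p of each list. Of these, 1 is not reported here. Other members of the lists, families and facing starts were named after their values were seen. Members and lists were chosen with earlier results of these data known. No genome was used here, so sequences come from GENCODE 29 transcripts and RefSeq promoters, and identities from blastn 2.17.0. Alternatives were RLE, upper-quartile and plain scaling, no filter and 1 CPM in 3 libraries (which at this depth kept 2937 members), DESeq2 1.42.0, limma-voom (limma 3.58.1), a fit with the replicate block, and fits without each library.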

Additional observations from a re-analysis of the deposited data

How the results depend on the processing

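Counts of calls over all members and over those clear of coding genes kept within 1.5 times of those reported under RLE, upper-quartile and plain scaling, both filters and limma-voom, while small lists moved: p53 genes had 1 lower in place of 3 under plain scaling and with no filter, PMS2 copies 0 higher in place of 1 with no filter, and ribosome biogenesis genes 0 lower in place of 1 under both and in limma-voom. DESeq2 called 165 members higher and 238 lower, and 62 higher and 92 lower of those clear of coding genes; the cause was not tested. Leaving out each library gave 288 to 307 higher and 342 to 359 lower members, and 104 to 113 higher and 125 to 136 lower clear of coding genes. The difference in the share of counts was then -0.832 to -0.728 points, against -0.261 points without the most abundant member and -0.189 for members clear of coding genes alone. Chosen after seeing the data, leaving out members over pseudogenes gave 248 lower members, and 70 higher and 47 lower of those clear of coding genes, where fewer genes are counted by construction. With 1 member per overlap cluster, 107 were higher and 127 lower clear of coding genes. Of 742 values of 53 named members under alternatives, 699 kept direction and side of the threshold, 38 lost the call, 3 gained it and 2 changed sign. Both of the latter were ENSG00000310385, not called in any fit, at -0.0012 without SiCtrl replicate 3 and -0.0063 without SiSFPQ replicate 3, with a range of -0.0063 to 0.049 over the fits that left out a library. The 3 gains were ENSG00000289393, ENSG00000290199 and ENSG00000306812 under plain library totals.

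Libraries share replicate numbers across groups, but the numbers did not pair them: correlations of deviations from the group means were -0.0045, 0.00099 and 0.0093. A fit with the replicate block called 322 higher and 375 lower members, and 115 higher and 139 lower clear of coding genes. Members under 10 CPM were called in fewer cases (16.3% higher and 10.2% lower) than those of 100 CPM or more (27.0% and 42.9%). All genes under 10 CPM were likewise called in 17.6% and 12.5% of cases. The part of depth in this was not tested. Large fold changes at these levels rest on few counts.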
